A study of Saccharomyces cerevisiae with 40 samples.

Results

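Of the 40 expression profiles of the cross between the laboratory yeast S288C and the wine yeast derivative 59A, 24 were compared according to the balance of their mating pheromone transcripts. For each of the 30 segregants a score was computed as the log2 ratio of MFA1 (YDR461W, which encodes the a-factor precursor) minus that of MF(ALPHA)1 (YPL187W, which encodes the alpha-factor precursor). The segregants were chosen by these measured log2 ratios, the 12 with the highest score against the 12 with the lowest, and the remaining 6 were left between them. The groups were drawn as a-like and alpha-like segregants, but because no a-specific or alpha-specific gene outside the score passed the test between them, they are called high-score and low-score segregants here.

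S288C is the haploid strain of the yeast reference genome (MATα, SUC2, gal2 in the methods), and 59A is a prototrophic haploid derived from the commercial wine yeast EC1118 (MATa, ho). The deposited description lists both parents as MATa, so that the mating type of S288C is given in conflicting ways. The segregants are haploid spore clones of the S288C x 59A hybrid from 21 asci, each represented by 1 culture, whereas each parent was grown in 5 independent cultures. All cultures fermented a synthetic must at 28 °C and were sampled at 50% of the fermentation, after the release of 45 g of CO2. Each array set the RNA of a culture against a pool of the RNA of all 30 segregants. A log2 ratio of 0 is thus nominally the level of the pool.

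Haploid yeast cells are of mating type a or alpha, which is set by the allele at the MAT locus on chromosome III. The MATα allele encodes alpha1, which activates the alpha-specific genes, and alpha2, which represses the a-specific genes. In MATa cells the a-specific genes are transcribed by default with the help of Mcm1. Cells of type a secrete a-factor and carry the alpha-factor receptor Ste2, and alpha cells secrete alpha-factor and carry the a-factor receptor Ste3. Silent copies of the alpha and a genes lie at HML and HMR on the same chromosome. In a cross between a MATa and a MATα haploid, the mating type segregates equally among the 4 spores of an ascus.

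The expression table held 4388 oligonucleotides. The values of every array ran from -2.32 to 2.09, the common limits left by the quantile normalization between arrays. A value at a limit therefore marks an extreme rank on its array, and the measured ratio may have been smaller or larger in size. Over all oligonucleotides 13 of the 435 pairs of segregant arrays correlated below -0.3, with the lowest r at -0.44. The direction, sample over pool, was kept because the methods state the dyes. It also matched the 4 ASP3 oligonucleotides, for genes known to be repeated in S288C, which lay between 0.37 and 0.72 in S288C and between -0.73 and -0.46 in 59A. Although the pool was made from the RNA of the segregants, MF(ALPHA)2 was below 0 in all 30 of them and STE3 above 0 in all 30. A value of 0 therefore cannot be read as the level of the pool for these oligonucleotides, and the cause was not tested.

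The score formed a continuum with a shallow step rather than 2 separate classes. It ran from -2.17 in segregant 17a to 3.06 in segregant 22a, with a median of 0.54. The low-score group reached from -2.17 to -0.35 (median -1.19) and the high-score group from 1.93 to 3.06 (median 2.46). Just inside the lower limit lay 9a at -0.37 and 19b at -0.35, and just outside it lay 18c at 0.18. Just inside the upper limit lay 18b at 1.93 and 25a at 1.96, and just outside it lay 19c at 1.31. The widest gap between neighbours was 0.62, between 19c and 18b, and the gap between 19b and 18c was 0.53, against a median gap of 0.09. The other middle segregants were 14a at 0.28, 24a at 0.36, 29c at 0.72 and 22c at 1.19.

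MF(ALPHA)1 carried most of this spread. It had an SD of 1.42 over the 30 segregants against 0.51 for MFA1, and it contributed 79.6% of the variance of the score. Its log2 ratio lay between -0.11 and 2.09 in the low-score group (median 0.52) and between -2.32 and -1.58 in the high-score group (median -2.32), so that the groups did not overlap, as the choice of the segregants fixed. In 8 of the 12 high-score segregants it sat at the lowest value of the array, and in low-score segregants 20b and 28b at the highest. MFA1 ranged from -1.18 to 0.30 in the low-score group (median -0.46) and from -0.35 to 0.74 in the high-score group (median 0.35). The groups overlapped in MFA1 even though it was part of the score, and 5 of the low-score segregants lay above the lowest high-score segregant. Ranking on MF(ALPHA)1 alone gave the same 12 high-score segregants and 11 of the 12 low-score segregants, whereas ranking on MFA1 alone shared 8 and 9 of them. These values chose the groups and are given without a test.

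**Figure D1:**
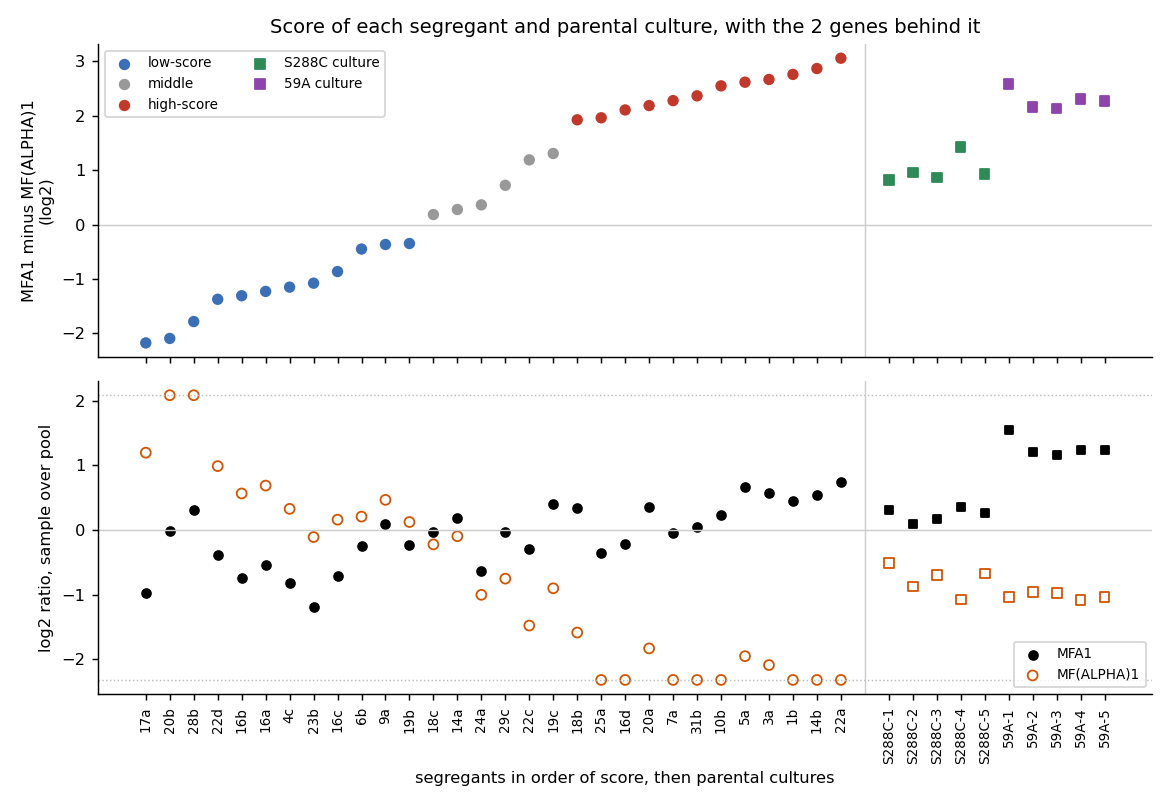
The upper panel plots the score, MFA1 minus MF(ALPHA)1 in log2 units, for the 30 segregants in rising order (circles, coloured by group) and for the 5 cultures of each parent (squares); the lower panel plots the log2 ratios of both genes for the same samples, with dotted lines at the limits of the arrays. The score rises without a single break from -2.17 to 3.06, and MF(ALPHA)1 falls to the lower limit of -2.32 in 8 high-score segregants.

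Sister spores were present for 6 asci. In ascus 16, the only one with 4 spores in the table, 16a, 16b and 16c had scores of -1.23, -1.31 and -0.86 and belonged to the low-score group, and 16d had a score of 2.11 and belonged to the high-score group. Its MF(ALPHA)1 log2 ratios were 0.69, 0.57 and 0.16 in the low-score spores and -2.32 in 16d. In ascus 22 the spores 22d, 22c and 22a fell into the low, middle and high range at -1.37, 1.19 and 3.06. The pair 20a and 20b lay at 2.19 and -2.09.

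No a-specific or alpha-specific gene outside the score passed the test between the groups. The limma fit over 24 arrays called 2 of the 4388 oligonucleotides (0.0456%) at an adjusted p under 0.05, MF(ALPHA)1 itself and YGL088W, both lower in the high-score group, and 322 (7.34%) had an unadjusted p under 0.05. Of the 7 a-specific genes listed 4 were in the table (BAR1, AGA2 and ASG7 were not analysed), and all 6 alpha-specific genes listed were in it. None of the 8 members outside the score was called, and 3 of them had an unadjusted p under 0.05, the a-specific MFA2 and STE2 with a positive and the alpha-specific AFB1 with a negative difference, the signs that the names a-like and alpha-like would give. Of the 5 alpha-specific members 2 had the opposite sign, STE3 at 0.16 and MATALPHA1 at 0.04. The differences of STE6 and MF(ALPHA)2 were small, at 0.01 and -0.04. The median difference was 0.21 over the 3 a-specific members and -0.04 over the 5 alpha-specific members, against 0.02 over the 4386 other oligonucleotides of the table.

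MFA2 (YNL145W), the second gene for the a-factor precursor, had the largest difference of these members. Its log2 ratio ran from -0.60 to 0.54 in the low-score segregants (median 0.08) and from -0.17 to 1.65 in the high-score segregants (median 0.77), and the groups overlapped. The difference was 0.72 ± 0.17 (SE, n = 12 and 12; adjusted p = 0.175, limma). MFA1 and MFA2 both encode precursors of a-factor and resemble each other in sequence, and whether their oligonucleotides hybridised to both transcripts was not tested.

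STE2 (YFL026W), the receptor for alpha-factor on a cells, ranged from -0.42 to 0.13 in the low-score group (median -0.12) and from -0.19 to 0.29 in the high-score group (median 0.13). Its difference was 0.21 ± 0.08 (adjusted p = 0.449). The 6 middle segregants had a median of 0.03 and reached 0.51. STE6 (YKL209C), the transporter that exports a-factor, ranged from -0.69 to 0.55 and from -0.59 to 0.58, with a difference of 0.01 (95% interval -0.32 to 0.33).

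Of the alpha-specific genes other than MF(ALPHA)1, AFB1 alone had an unadjusted p under 0.05 between the groups. AFB1 (YLR040C), whose product in alpha cells blocks a-factor, ranged from -0.06 to 0.77 in the low-score group (median 0.33) and from -0.74 to 0.61 in the high-score group (median 0.09). Its difference was -0.32 ± 0.16 (adjusted p = 0.679). MF(ALPHA)2 (YGL089C), the second and weaker gene for alpha-factor, ranged from -0.89 to -0.04 in the low-score group and from -0.96 to -0.17 in the high-score group. Its difference was -0.04 (95% interval -0.26 to 0.17), beside a difference of -2.90 in the means of MF(ALPHA)1. STE3 (YKL178C), the receptor for a-factor on alpha cells, ranged from 0.16 to 2.09 in the low-score group and from 0.23 to 2.09 in the high-score group, with a difference of 0.16 (95% interval -0.27 to 0.59). SAG1 (YJR004C), the alpha-agglutinin through which alpha cells adhere to a cells, ranged from -0.04 to 0.55 and from -0.10 to 0.56, with a difference of -0.16 ± 0.09 (adjusted p = 0.859). MATALPHA1 (YCR040W), the alpha1 activator itself, ranged from -1.41 to 0.03 and from -1.34 to 0.06, with a difference of 0.04 (95% interval -0.32 to 0.41). Every one of these alpha-specific genes overlapped between the groups.

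**Figure D2:**
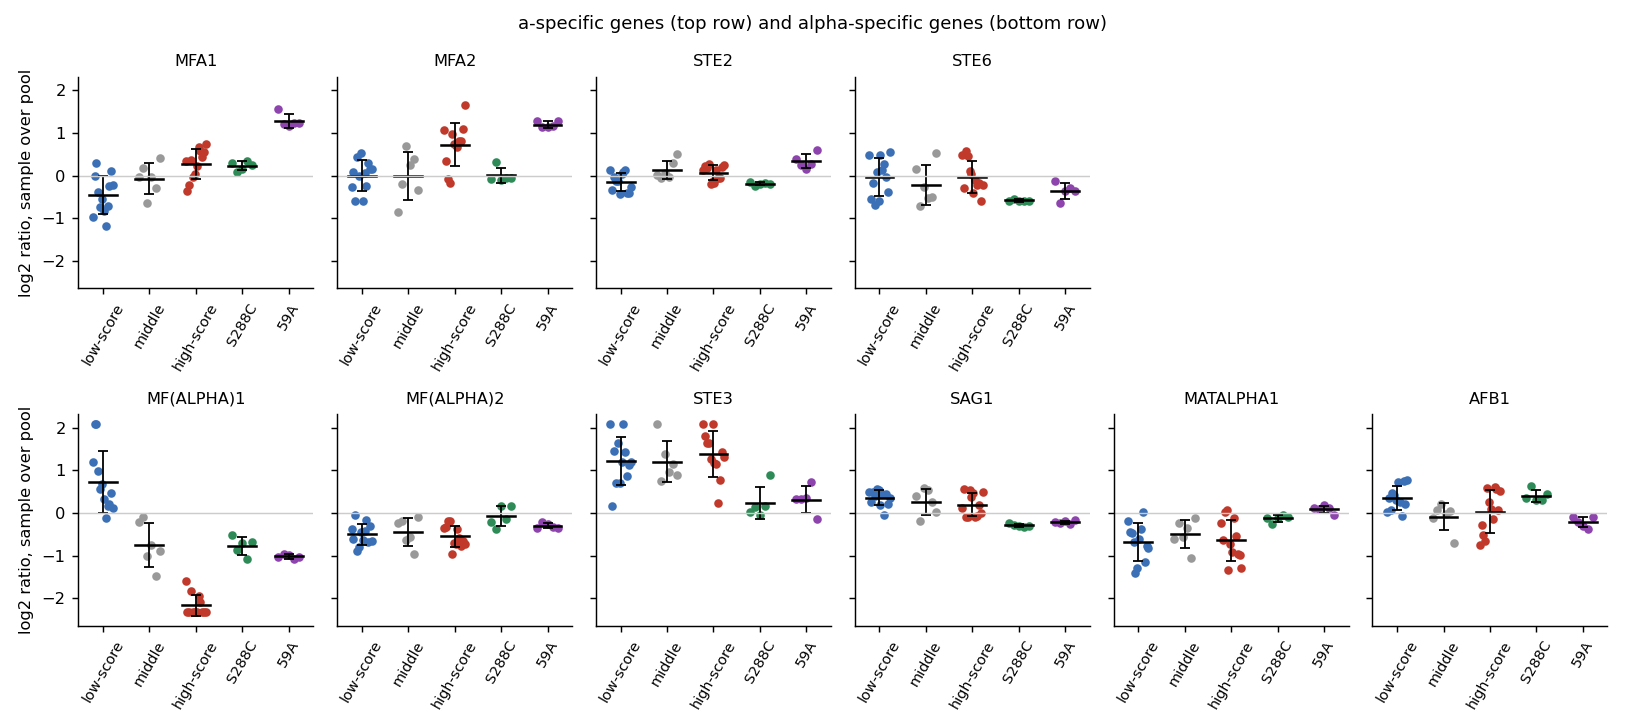
Log2 ratio of sample over pool for the 4 a-specific genes (top) and the 6 alpha-specific genes (bottom) in 12 low-score, 6 middle and 12 high-score segregants and in 5 cultures each of S288C and 59A; points are arrays, and bars give the mean and the SD. Only MF(ALPHA)1 separates the groups, which it was used to choose. All other genes overlap, among them MFA2 with means of 0.00 and 0.72 in low-score and high-score segregants.

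Over all 30 segregants, without groups, the genes of the score were set against each other and against the other 8 members, which gave 17 pairs. This comparison was chosen after the data were seen. MF(ALPHA)1 and MFA2 were negatively correlated (r = -0.60, permutation adjusted p = 0.0068; Spearman's rho = -0.60, permutation adjusted p = 0.0116), and without the 2 segregants farthest from the median of MF(ALPHA)1 r was -0.58. This was the only one of the 17 pairs past an adjusted p of 0.05 by either measure. MF(ALPHA)1 carried most of the score, so that this pair is no independent check of the difference of MFA2 between the groups. The 17 pairs of the adjustment include MFA1 with MF(ALPHA)1. MFA1 and MF(ALPHA)1, whose values made the score, had an r of -0.48 (Spearman's rho = -0.49), which is given as a description. MFA1 and MFA2 had an r of 0.43 (permutation adjusted p = 0.0693), MFA1 and SAG1 an r of -0.42 (permutation adjusted p = 0.0693) and MF(ALPHA)1 and STE2 an r of -0.42 (permutation adjusted p = 0.0693). MF(ALPHA)1 with MF(ALPHA)2 had an r of 0.21 and with STE3 an r of -0.18. Sister spores of 6 asci entered these relations as separate points. MF(ALPHA)1 was tied at the lower limit of the arrays in 8 of the 30 segregants and at the upper limit in 2, which bears on each of its correlations.

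The parents, which the score had not used, differed in 3 of the 4 a-specific genes and in 2 of the 6 alpha-specific genes. The limma fit called 1352 of 4388 oligonucleotides (30.8%) between the strains at an adjusted p under 0.01. Of the 10 members, 5 were called, namely MFA1, MFA2 and STE2, which were higher in 59A, AFB1, which was lower in 59A, and MATALPHA1, which was slightly higher in 59A.

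MFA1 was at 1.56, 1.21, 1.16, 1.23 and 1.23 in the 5 cultures of 59A and at 0.30, 0.09, 0.17, 0.35 and 0.26 in those of S288C. The strains did not overlap, and the difference was 1.04 ± 0.08 (adjusted p = 3.6e-07, limma; exact permutation p = 0.0079, the smallest that 252 groupings allow). MFA2 stood at 1.29, 1.13, 1.14, 1.16 and 1.27 in 59A and at -0.08, 0.33, -0.10, -0.05 and -0.06 in S288C. Its difference was 1.19 ± 0.08 (adjusted p = 1.4e-07, limma). STE2 was at 0.39, 0.26, 0.16, 0.28 and 0.59 in 59A and at -0.15, -0.24, -0.19, -0.18 and -0.19 in S288C, a difference of 0.53 ± 0.07 without overlap (adjusted p = 6.7e-05, limma).

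AFB1 was lower in every culture of 59A, at -0.37 to -0.08 against 0.30 to 0.64 in S288C (difference -0.62 ± 0.08, adjusted p = 3.7e-05, limma). STE6 lay below 0 in both strains, at -0.63 to -0.13 in 59A and -0.60 to -0.53 in S288C (difference 0.22, adjusted p = 0.032, limma). In sign, MFA2, STE2 and AFB1 differed between the score groups as between 59A and S288C, with smaller differences in the segregants.

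MF(ALPHA)1 was below 0 in both parents. It was at -1.03, -0.95, -0.98, -1.08 and -1.04 in 59A and at -0.52, -0.87, -0.70, -1.07 and -0.67 in S288C, so that the strains overlapped and the difference of -0.25 did not pass 0.01 (adjusted p = 0.035, limma; exact permutation p = 0.0476). No parental culture came near the values of the low-score segregants, of which 11 of 12 were above 0, or of the high-score segregants, whose highest value was -1.58. The score was 0.82 to 1.42 in S288C (mean 1.00 ± 0.24 SD, n = 5) and 2.13 to 2.59 in 59A (mean 2.29 ± 0.18 SD, n = 5). S288C thus fell in the range of the middle segregants or just above it, and 59A in the range of the high-score segregants. STE3, SAG1 and MF(ALPHA)2 were not called between the parents. MATALPHA1 was at -0.05 to 0.18 in 59A and -0.25 to -0.03 in S288C (difference 0.21 ± 0.06, adjusted p = 0.0093, limma), although the methods give 59A as MATa, and this call was lost in 8 of the 10 fits that left out 1 culture.

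The difference between the score groups was next set against the difference between the parents in a single fit, in which 128 of 4388 oligonucleotides (2.92%) were called at an adjusted p under 0.05. Of the 10 members the only one called was MF(ALPHA)1, whose difference in the segregants the choice of the groups had set. For MFA2 the segregant difference was smaller than the parental difference by 0.47 ± 0.28 (adjusted p = 0.428), and for STE2 by 0.32 ± 0.14 (adjusted p = 0.229). The segregants are single cultures of 24 genotypes and the parents 5 cultures of 1 genotype, so that the spread is not of the same kind in both.

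The genes at the silent and active mating loci overlapped between the groups, and none was called. MATALPHA2, the repressor of the a-specific genes, had means of -0.50 ± 0.33 (SD, n = 12) in the high-score and -0.49 ± 0.18 in the low-score segregants. HMLALPHA1 differed by 0.12 (95% interval -0.20 to 0.45), HMLALPHA2 by -0.08 and HMRA2 by -0.02. The HML copies have the sequence of the MATα genes, so that the oligonucleotides of MATALPHA1 and HMLALPHA1, and of MATALPHA2 and HMLALPHA2, cannot be told apart as measures of the active locus, and HMRA1 was not analysed.

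Genes that act downstream of the pheromones were described by lists. Of the 7 haploid-specific genes in the table none was called and 6 were nominally higher in the high-score group, with differences from -0.11 for STE4, the beta subunit of the pheromone-coupled G protein, to 0.09 for AXL1, a protease that matures a-factor. Of the 10 genes of the pheromone kinase cascade none was called, and the differences ran from -0.13 for STE7, the MAP kinase kinase, to 0.21 for STE20, the kinase at the head of the cascade, and 0.14 for the GTPase gene CDC42. None of the 9 pheromone-induced genes was called. FUS1, which is required for the fusion of mating cells, was at -0.13 ± 0.35 in the high-score and 0.16 ± 0.27 in the low-score group, a difference of -0.28 ± 0.12 (adjusted p = 0.548), and PRM1, which acts in membrane fusion, differed by -0.20.

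The processing enzymes of both pheromones were likewise not called. The 4 a-factor genes differed by -0.04 to 0.11, with RAM2, a subunit of the farnesyltransferase, at 0.11 and the protease gene STE24 at 0.09. The 3 alpha-factor genes differed by -0.14 for STE13, a dipeptidyl aminopeptidase, to 0.03 for KEX2, the protease that cuts the alpha-factor precursor. Among the 5 regulators of cell type, MCM1 differed by -0.18 and TUP1, a corepressor of alpha2, by 0.11, and neither was called. The 3 genes of sporulation in the table, which mark diploid cells, differed by -0.28 for SPR3, -0.03 for SPS1 and 0.14 for IME2, again without a call.

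**Figure D3:**
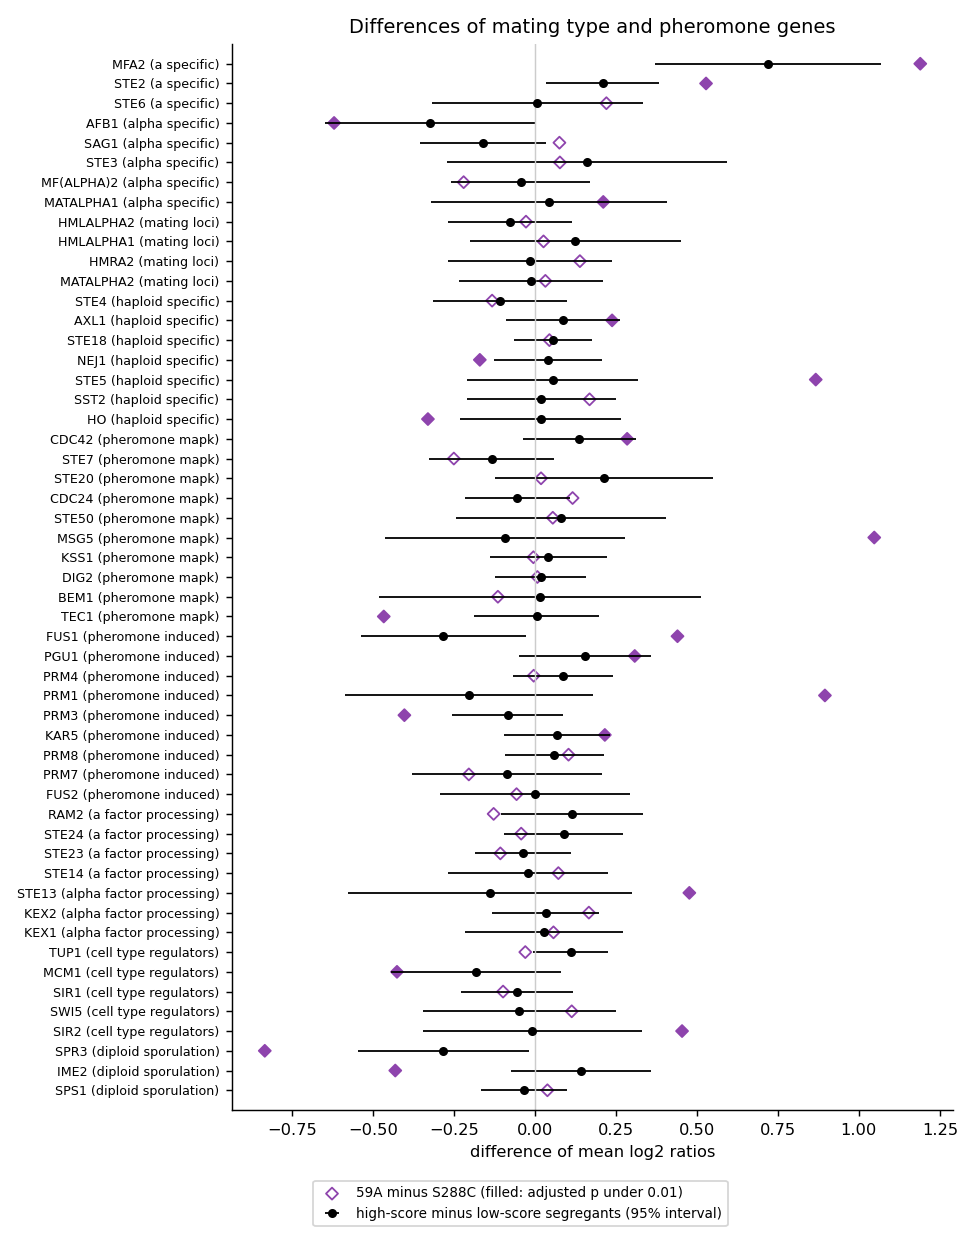
Differences of mean log2 ratios for the genes of the 10 lists without MFA1 and MF(ALPHA)1; black points give high-score minus low-score segregants (12 against 12) with 95% intervals before any adjustment, and diamonds give 59A minus S288C (5 against 5), filled where the adjusted p is under 0.01. Only MFA2 departs from 0 by more than 0.5 between the score groups, whereas STE5, MSG5 and PRM1 are among the genes that differ more between the parents.

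Genes close to MAT on chromosome III are inherited together with the mating type. Of the genes within 20 places of MATALPHA1 in the reference gene order, 26 were in the table, and none was called between the score groups, with differences between -0.23 and 0.18 and 2 at an unadjusted p under 0.05. Of these 26 genes 9 differed between the parents at an adjusted p under 0.01, a share close to the 30.8% called over all oligonucleotides. Their median difference was 0.48 in size between the parents and 0.04 between the score groups. The 9 were picked by their difference between the parents, which raises the first value, so that the medians are not like measures. Over the 4386 oligonucleotides outside the score the median size between the score groups was 0.07. RPS14A, a ribosomal protein gene, was higher in 59A by 0.69 and differed by 0.04 between the groups, and RRP43, an exosome subunit, was higher in 59A by 0.61 and differed by -0.23. HCM1, a transcription factor of the cell cycle, was lower in 59A by -0.48 and differed by -0.15 ± 0.07 (adjusted p = 0.613). Along the whole of chromosome III none of 108 oligonucleotides was called, and 38 differed between the parents, again beside 30.8% over the whole table. The widest differences between the groups there were those of YCL020W at -1.18 ± 0.33 and of its overlapping neighbour YCL019W at -0.91 ± 0.30. Differences of like size were found on other chromosomes, as for YDR034C-C on chromosome IV at -1.18 ± 0.32 and for the retrotransposon gene YLR410W-B on chromosome XII at -0.94 ± 0.25. Between the parents YCL020W was higher in 59A by 0.91 and YCL019W lower by -1.10. Whether the oligonucleotides of YCL020W and YCL019W measured transcripts of chromosome III alone was not tested.

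**Figure D4:**
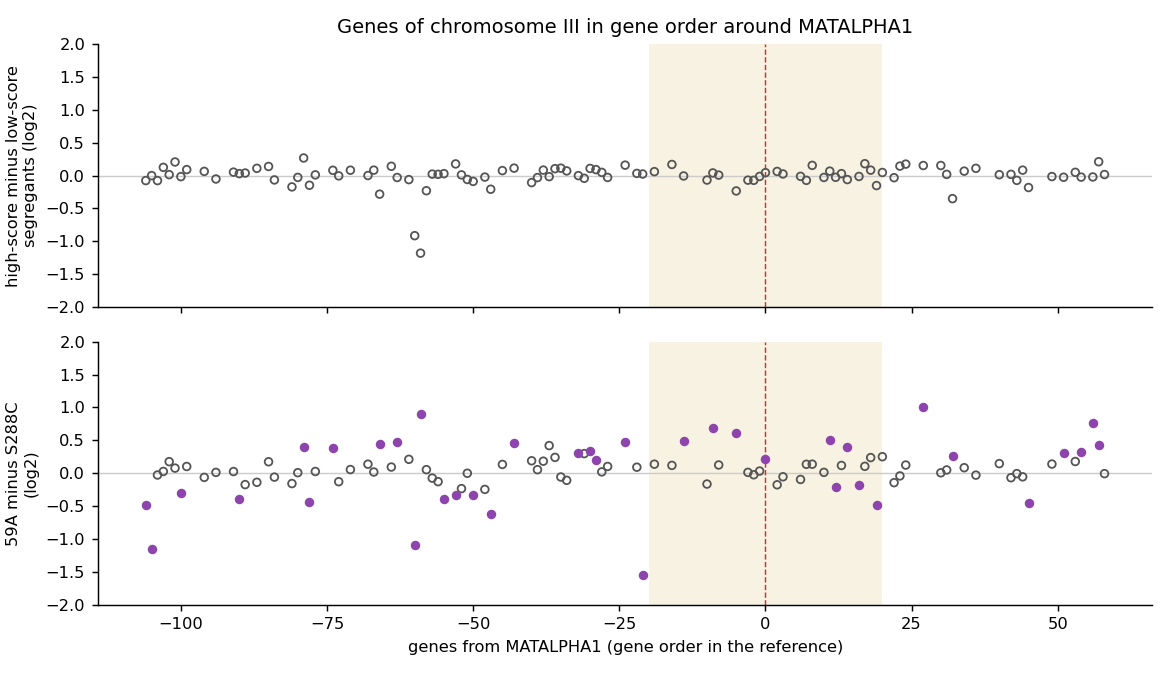
Differences of mean log2 ratios of the 108 oligonucleotides of chromosome III by gene order from MATALPHA1 (dashed line), for high-score minus low-score segregants (top) and 59A minus S288C (bottom); filled points are called, and the shaded band marks 20 genes on each side. No gene is called in the top panel, and 9 are in the band of the bottom panel.

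Across all genes few passed the test. Besides the genes of the score, YGL088W on chromosome VII was the only one called. Its log2 ratio ran from -0.26 to 1.18 in the low-score segregants (median 0.51), from -0.61 to 0.92 in the middle segregants and from -0.83 to 0.02 in the high-score segregants (median -0.28). The groups overlapped, and the difference was -0.77 ± 0.15 (adjusted p = 0.0439, limma). Under the 12 alternatives the count of genes called besides those of the score stayed at 1 in 7 and fell to 0 in 5, and 59A and S288C did not differ in it beyond their spread (difference -0.01, adjusted p = 0.952, limma). In the reference, YGL088W lies next to MF(ALPHA)2 and overlaps the small nucleolar RNA gene SNR10, and which transcript its oligonucleotide measured was not tested. The first 3 principal components of the segregant arrays held 31.0%, 16.4% and 11.2% of the variance, and the groups overlapped on each. On component 3 the means were 1.96 in the high-score and -4.76 in the low-score segregants (permutation p = 0.0312, adjusted p = 0.0936).

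No fermentation trait passed the test between the groups. None of the 10 traits had an adjusted p below 0.93 in a two-sided permutation test (12 against 12 segregants, or 11 in the low-score group for the cell population). The maximal fermentation rate Rmax was 2.13 ± 0.48 g of CO2 per l and h (SD, n = 12) in the high-score and 2.32 ± 0.46 in the low-score segregants, a difference of -0.18 (95% interval -0.58 to 0.21). The rate at 50% of the fermentation, R50, was 1.87 ± 0.49 and 1.90 ± 0.47 g of CO2 per l and h, and the rate later in the fermentation, R70, was 1.52 ± 0.38 and 1.48 ± 0.41. The fermentation lasted 84.3 ± 14.8 h and 81.0 ± 14.9 h, a difference of 3.24 h (95% interval -9.36 to 15.8).

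The cell population was 167 ± 48.5 megacells per ml in the high-score segregants and 146 ± 46.0 in the low-score segregants, a difference of 20.5 (95% interval -20.6 to 61.5), the smallest unadjusted p of the 10 traits (permutation p = 0.31). Assimilated nitrogen was 309 ± 38.0 and 314 ± 37.3 mg per l. The products succinate, glycerol, acetate and pyruvate were 0.309, 5.71, 0.896 and 0.195 g per l in the high-score group and 0.312, 5.51, 0.792 and 0.182 g per l in the low-score group, with each difference inside the spread of the segregants. The intervals leave room for differences of the size seen here in either direction.

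**Figure D5:**
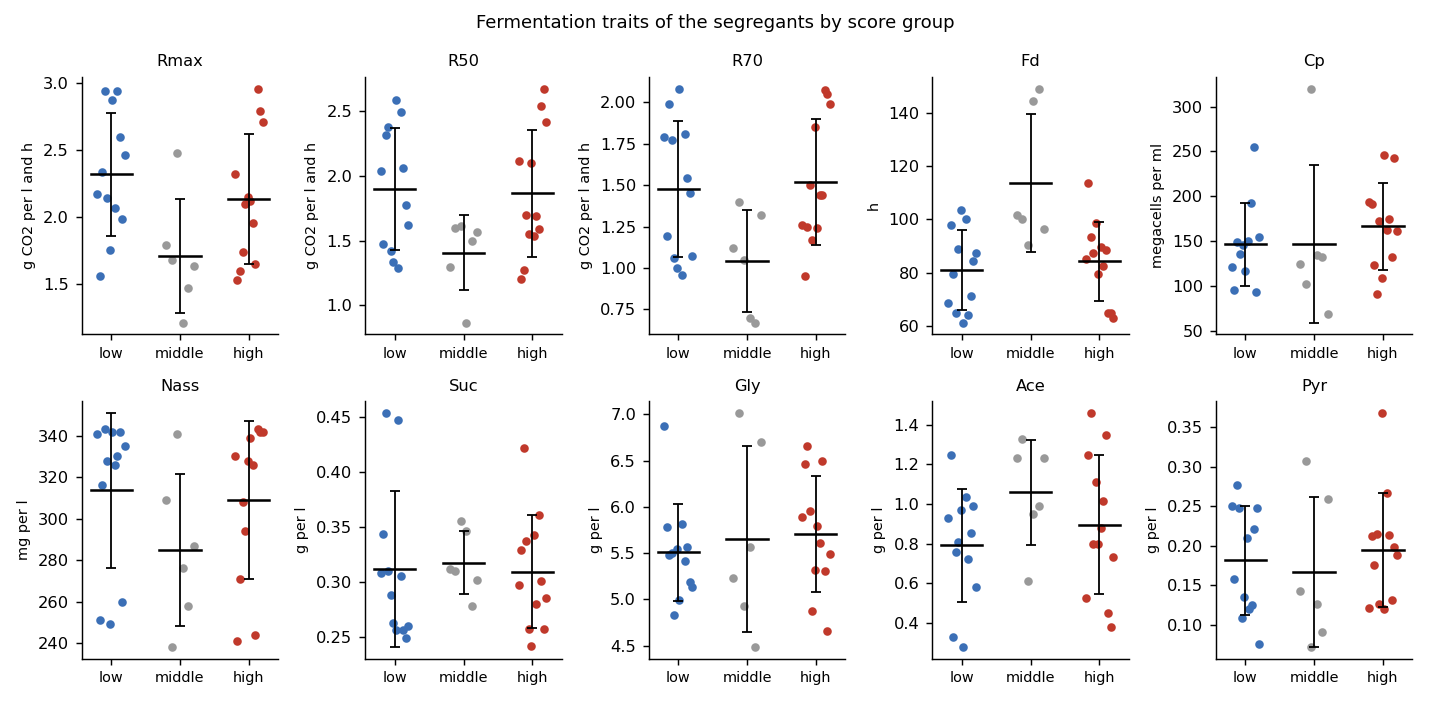
The 10 fermentation traits, each in the unit on its axis, in 12 low-score, 6 middle and 12 high-score segregants; points are strains, and bars give the mean and the SD. The low-score and high-score segregants overlap in every trait, as for Rmax with means of 2.32 and 2.13 g of CO2 per l and h.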

How the data were processed

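The authors deposited log2 ratios of 2-colour arrays, Cy3-labelled sample RNA over a Cy5-labelled pool of the segregants. By the methods they used limma under R 2.9.2 for print-tip loess within arrays and quantile normalization between them, and took the mean of 2 technical hybridisations. The scale and direction are not stated in the table. Array medians lay between -0.026 and 0.028. The deposited trait table, in the units of the methods, gives 1 value per strain for 10 traits, by the methods a mean of duplicate fermentations for segregants, with assimilated nitrogen from a single one, and its parental lines were not used here. The aligner, build and depth do not apply, and the number of arrays limits the precision. Gene names of 4104 oligonucleotides matched the reference gene table (assembly R64) and 284 were kept as given. The array names no build, so no coordinates are given.

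Groups were fitted with limma 3.58.1 in R 4.3.3 (lmFit, eBayes, two-sided, Benjamini-Hochberg over 4388 oligonucleotides), at 0.05 for the segregants and 0.01 for the parents. MFA1 and MF(ALPHA)1 were left out of the counts of called members between the score groups. They were kept in the counts of members called between the parents and between the contrasts. Parental members also had an exact permutation test, and traits and correlations 100000 permutations (Python 3.11.15, numpy 2.4.6, scipy 1.17.1). Intervals are at 95%. The fits were tested on simulated data. Segregants are 1 culture each, so that their p-values measure a spread in which strain, culture and array cannot be separated. Sister spores entered the main fit as separate strains. The members and all gene lists were chosen with earlier results of these data known, and AFB1, first listed as a-specific, was moved to the alpha-specific genes after the results were seen. Named genes are the a-specific and alpha-specific members, in the other lists called members and otherwise at most the 2 of largest difference, called genes elsewhere (at most 10 in each direction), and genes near MAT that were called. Genes named beyond this rule, such as those near MAT called between the parents, the sporulation genes and YCL020W, were chosen after their values were seen.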

Additional observations from a re-analysis of the deposited data

Results flagged for a closer look

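Of 20 groups of 5 parental cultures (10 members in each strain), 4 held a culture that stood apart from the other 4, where chance alone flags about 1 group in 20. MFA1 was at 1.56 in culture 1 of 59A, MFA2 at 0.33 and STE6 at -0.53 in culture 2 of S288C, and STE3 at 0.90 in culture 5 of S288C.

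Of the 53 listed genes in the table other than MFA1 and MF(ALPHA)1, 4 differed between the score groups by another amount than between the parents at an adjusted p under 0.05 (limma), beside 2.92% of all oligonucleotides, and all were higher in 59A than in S288C. For STE5, the scaffold of the pheromone kinase cascade, the segregant difference minus the parental difference was -0.81 (adjusted p = 0.0251). For MSG5, a phosphatase that acts on the cascade, it was -1.14 (adjusted p = 0.0266). For the fusion genes FUS1 and PRM1 it was -0.72 (adjusted p = 0.0427) and -1.10 (adjusted p = 0.0413).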

How the results depend on the processing

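The count of 1 gene called between the score groups besides those of the score fell to 0 with the 10 highest against the 10 lowest segregants, with the score as a continuous covariate over 30 segregants, with the first spore of each ascus, with R50 as a covariate and with a Welch statistic per gene, and stayed at 1 in the other 7 alternatives. No a-specific or alpha-specific member outside the score was called under any of the 12 alternatives, and no trait under its alternatives. Leaving out each parental culture gave 4 to 6 members called between the parents. The difference between the contrasts called 1 member throughout. In the main fit this was MF(ALPHA)1, whose difference in the segregants the choice of the groups had set, so that the call is no result about it. Replicate numbers of the parents did not pair the cultures (correlations of deviations of -0.29 to 0.39), and with the replicate number as a block, or by the methods' t-test, 4 members were called, without MATALPHA1.

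Some differences that were not called changed sign. That of STE6 was -0.0012 with the continuous score and -0.087 with first spores, and that of MATALPHA1 -0.019 with 10 against 10 and -0.046 with the continuous score. STE3 between the parents ran from -0.023 without culture 4 of 59A to 0.243 without culture 5 of S288C. Among the traits R50 was 0.10 and Fd -0.049 and Nass 0.034 as Spearman's rho, R70 was -0.025 with 15 against 15 and -0.055 as a difference of medians, and Suc was 0.0023 as a difference of medians. In rankings on a single gene, added after the data were seen, MFA1 alone gave R50 0.165, Fd -6.40 (from 3.24), Cp -22.7 (from 20.5) and Suc 0.01, and MF(ALPHA)1 alone gave Nass 2.75, Suc 0.0091 and Pyr -0.0025. The cause was not tested. MF(ALPHA)1 sat at an array limit, and thus at an extreme rank, in 10 segregants.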

Other observations

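The following genes were chosen after their values were seen. Of the 7 retrotransposon genes named as such in the study's tables, 6 were lower in the high-score segregants, by up to -0.94 on the log2 scale. None was called (smallest adjusted p = 0.212, limma), and 1841 of the 4386 oligonucleotides outside the score were lower as well. The 6 had similar values in the same segregants, as YGR038C-B at 1.31 and YFL002W-A at 1.39 in 22d. Whether their oligonucleotides measured separate transcripts was not tested, so that they may not count as 6 separate genes. YDR261W-B ran from -0.02 to 1.17 in the low-score segregants (median 0.88), from -1.11 to 0.38 in the middle segregants and from -1.35 to 0.84 in the high-score segregants (median -0.03). The middle segregants thus lay below the high-score segregants in the median, at -0.45, and did not stand between the groups. Between the parents the same gene was lower in 59A by -0.87 (adjusted p = 1.1e-06, limma). The exception among the 7 was YJL114W, with a difference of 0.03 between the score groups. All 7 were nominally lower in 59A. Other oligonucleotides that were lower in the high-score segregants had the opposite sign between the parents. YDR261W-A, at -1.05 between the score groups, was higher in 59A by 0.41 (adjusted p = 0.0024, limma). YCL020W, at -1.18 between the score groups, was higher in 59A by 0.91 (adjusted p = 4.0e-05, limma).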
